A study of Caenorhabditis elegans with 2 samples.

Results

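A set of 9 genes of axon regeneration in the nematode Caenorhabditis elegans was examined for regions bound by the ETS-family transcription factor ETS-4, which acts with several of them. The 9 genes, of 19973 protein-coding genes on the nuclear chromosomes, were taken by name: the growth factor gene svh-1, the receptor gene svh-2, the kinase genes mlk-1, kgb-1, dlk-1 and pmk-3, the C/EBP genes cebp-1 and cebp-2, and tdpt-1. The data were from chromatin immunoprecipitation sequencing (ChIP-seq) with an anti-GFP antibody on whole late embryos of hermaphrodite strain OP509, 5 hours after synchronization by bleaching. The strain carried unc-119(tm4063) on chromosome III and the transgene wgIs509, which makes ETS-4 with a GFP and FLAG tag at its C-terminus. There were 2 biological replicates of this 1 group, with no injured or untagged group, so conditions could not be compared. The labels used here give neither the copy number nor the place of the transgene. The embryos were undivided mixtures of all their cells, so strong binding in a few cells and weak binding in many cannot be told apart.

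In worms, an injured axon regrows under the control of a pair of MAP kinase cascades. In one, the secreted factor SVH-1, a relative of hepatocyte growth factor and plasminogen, activates SVH-2, a receptor tyrosine kinase of the Met family. SVH-2 in turn activates the MAP kinase kinase kinase MLK-1, which leads through MEK-1 to KGB-1, a kinase of the JNK family. In the other, the MAP kinase kinase kinase DLK-1 acts through MKK-4, the p38 kinase PMK-3 and MAK-2 to raise CEBP-1, a C/EBP transcription factor. ETS-4 was found in a screen for regeneration genes and, together with CEBP-1 and downstream of cyclic AMP and protein kinase A, induces svh-2 in injured neurons. TDPT-1, the worm relative of the DNA repair enzyme TDP2, restrains regeneration by promoting the attachment of SUMO to ETS-4.

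The sequences at the summits of the strongest regions are shown for 4 genes. They set side by side a strong region (cebp-1), an intermediate one (svh-1 and mlk-1) and a very weak one (svh-2, the gene known to need ETS-4). Each runs 201 bases, with the summit at its centre, on the forward strand of the RefSeq WBcel235 (ce11) genome. Capitals mark matches on either strand to GGAA, an ETS core that reads TTCC on the other strand, and to GAGAGA. They also mark the relaxed C/EBP site TTGCNNAA and the AP-1 site TGACTCA, which reads TGAGTCA on the other strand. The places are chrX:1454434-1454634 for cebp-1, chrIV:8205350-8205550 for svh-1, chrV:5065088-5065288 for mlk-1 and chrX:6552518-6552718 for svh-2. The cebp-1, mlk-1 and svh-2 summits were intergenic, and the svh-1 summit lay in an intron of hgrs-1. The 4 printed summits include all 3 of the 9 strongest summits with a TTGCNNAA match, so they do not represent the 9.
cebp-1: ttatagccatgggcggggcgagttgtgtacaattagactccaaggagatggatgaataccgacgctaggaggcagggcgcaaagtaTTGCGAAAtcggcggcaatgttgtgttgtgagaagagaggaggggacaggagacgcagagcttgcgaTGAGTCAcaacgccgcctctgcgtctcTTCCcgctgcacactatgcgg
svh-1: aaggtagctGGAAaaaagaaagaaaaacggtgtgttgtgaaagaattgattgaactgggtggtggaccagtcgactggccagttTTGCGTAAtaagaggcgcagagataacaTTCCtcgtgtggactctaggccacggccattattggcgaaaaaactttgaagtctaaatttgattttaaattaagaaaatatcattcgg
mlk-1: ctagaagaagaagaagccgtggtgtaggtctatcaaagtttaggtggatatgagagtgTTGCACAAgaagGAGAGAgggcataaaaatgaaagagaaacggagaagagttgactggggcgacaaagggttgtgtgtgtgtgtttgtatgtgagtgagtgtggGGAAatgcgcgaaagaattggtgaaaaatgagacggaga
svh-2: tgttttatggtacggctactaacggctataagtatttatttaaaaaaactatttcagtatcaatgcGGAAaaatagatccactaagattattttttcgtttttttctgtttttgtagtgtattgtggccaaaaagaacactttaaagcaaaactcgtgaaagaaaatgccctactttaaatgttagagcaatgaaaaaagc

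ETS-4 regions of high rank stood at 3 of the 9 genes, which were kgb-1, cebp-1 and cebp-2, and the receptor gene svh-2 had only a weak region that 1 replicate gave. Regions were taken from 4 lists that the authors deposited. There was 1 for each replicate, with 15619 and 14622 regions, and a pooled list of 12348 made from both replicates. A list of 1106 was selected by the irreproducible discovery rate (IDR), which measures how well ranks agree between replicates. The 1106 IDR regions were the 1106 pooled regions of highest signal. Of these, 1105 overlapped regions in both replicate lists and 1 a region of replicate 1 only. A place in the IDR list thus does not by itself show that a region had like ranks in the replicates. A gene was credited with a region when the summit lay in its window, from 5000 bp upstream of a start of the gene to the gene end. The signal is the authors' value of each region and ranks regions within a list only. No read counts came with the lists, so depth is unknown. An IDR region lay in the windows of 3 of the 9 genes and in those of 10.6% of all protein-coding genes. A pooled region of any strength lay in the windows of 9 of 9 and of 56.9%. The pooled list was deposited as peaks and background for input to IDR, so a region in it need not be a bound site. Overlapping regions in both replicate lists were found for 8 of 9, svh-2 being the exception, and for 37.2% of all genes. The windows of the 9 genes had a median length of 9415 bp and those of all genes 7024 bp, and a longer window can hold more regions. In the promoter window, 1000 bp upstream to 200 bp downstream of a start, IDR regions stood at the same 3 genes and at 5.34% of all genes, and pooled regions at 7 of 9 and at 26.5%. The genes were chosen with results of these data known, so these shares are set side by side without a test.

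**Figure D1:**
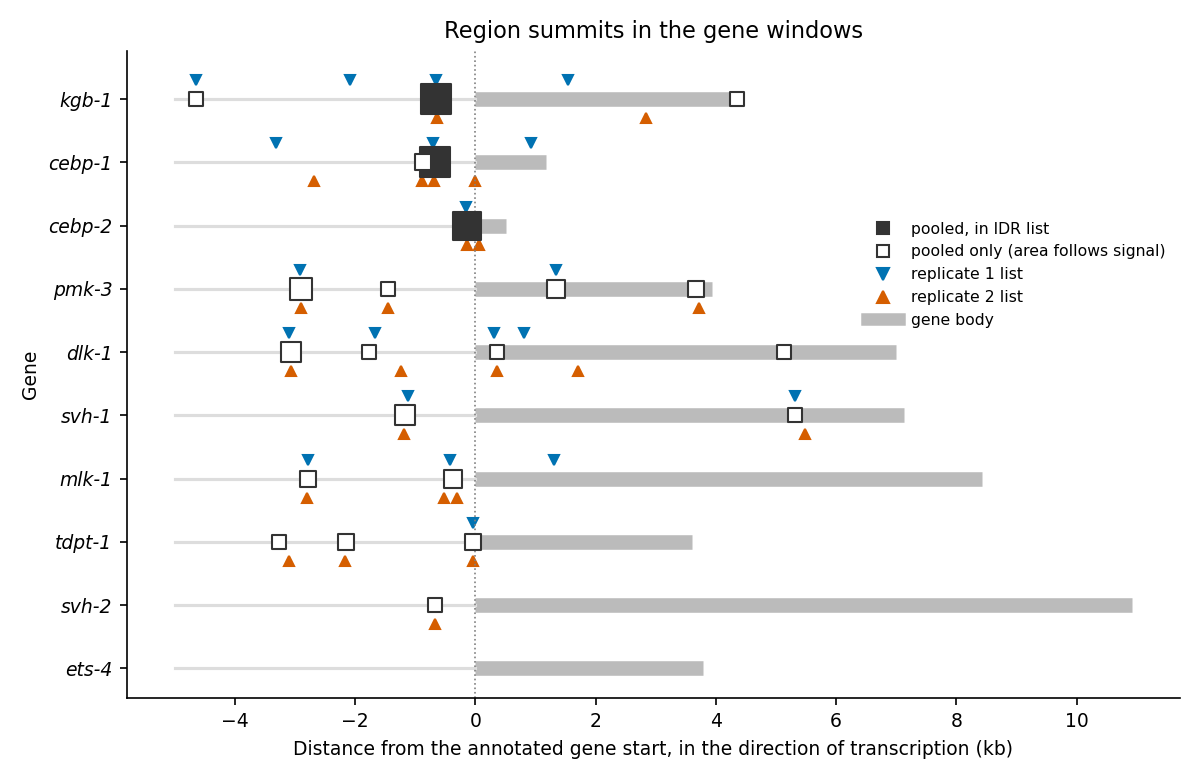
Summits of ETS-4 regions by distance from the annotated gene start in the direction of transcription (kb), for the 9 genes and ets-4. Squares are pooled regions, with area following signal and filled where the region is also in the IDR list, and triangles are regions of the separate replicate lists. The 3 filled squares lie less than 1 kb upstream of kgb-1, cebp-1 and cebp-2, and ets-4 has no mark.

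The IDR region at kgb-1, the JNK-type kinase gene, had the highest signal of the 9 genes in the pooled list and in replicate 2, but not in replicate 1, where cebp-2 was higher, and it lay between 2 diverging genes. Its pooled signal was 133.2 (rank 327 of 12348). The signals were 49.8 in replicate 1 (rank 594) and 84.3 in replicate 2 (rank 235). Its summits in the replicates were 7 bp apart. The summit stood 652 bp upstream of kgb-1 and only 180 bp upstream of T07A9.12, which is transcribed the other way, and it lay in the promoter windows of both. The region is therefore not specific to kgb-1 by position. At 158 bp it was narrower than the 404 bp of the other strongest regions. The other pooled regions of the window had signals of 31.5, in an intron of T07A9.12, and 28.3, in the 3' UTR of kgb-1. Replicate 2 alone listed a region of signal 21.5 in an intron of kgb-1, and replicate 1 alone listed one of 16.1 there.

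Both C/EBP genes had an IDR region close to their start. At cebp-1 the summit was at X:1454534, 666 bp upstream of the gene, in an intergenic stretch where no other protein-coding gene begins within the promoter window. Its pooled signal was 127.7 (rank 365), with 48.4 in replicate 1 (rank 638) and 80.5 in replicate 2 (rank 264). The replicate summits were 3 bp apart. A second pooled region of signal 40.0 (rank 3319), 866 bp upstream, overlapped the first and the same strong replicate regions. Replicate 2 also listed a weak region of its own there (signal 15.2, rank 9862), 895 bp upstream of cebp-1. At the summit of the first, the printed sequence held a TTGCNNAA match 7 bp from the centre and a TGACTCA match 53 bp away. Its GC content was 55.7%, against a median of 44.8% over IDR summits and 39.8% over pooled summits.

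At cebp-2, the summit stood at I:6252937, 145 bp upstream of the gene, in the 205 bp between cebp-2 and the preceding gene cof-2. The pooled signal was 117.9 (rank 431), with 62.2 in replicate 1 (rank 346) and 51.6 in replicate 2 (rank 631). The replicate summits were 13 bp apart. Unlike at kgb-1 and cebp-1, replicate 1 gave the higher signal. The summit was also 764 bp upstream of lpd-2, which follows cebp-2 on the same strand, so the promoter windows of both genes hold it. The window of 201 bp held 4 matches to GGAA and had a GC content of 34.3%, below the IDR median of 44.8%.

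Within each replicate list kgb-1 stood slightly above cebp-1, while cebp-2 was the highest of the 3 in replicate 1 and the lowest in replicate 2. The place of cebp-2 among them was therefore not the same in both replicates. In replicate 1 the 3 values spanned 48.4 to 62.2, and the strongest regions of the other genes, where listed, spanned 19.8 to 31.3. In replicate 2 the 3 spanned 51.6 to 84.3 and the others 15.1 to 41.6, so the groups did not overlap within either list. The pooled list that ranks the genes was made from the same 2 replicates, so this gap repeats that order and is no separate evidence for it.

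**Figure D2:**
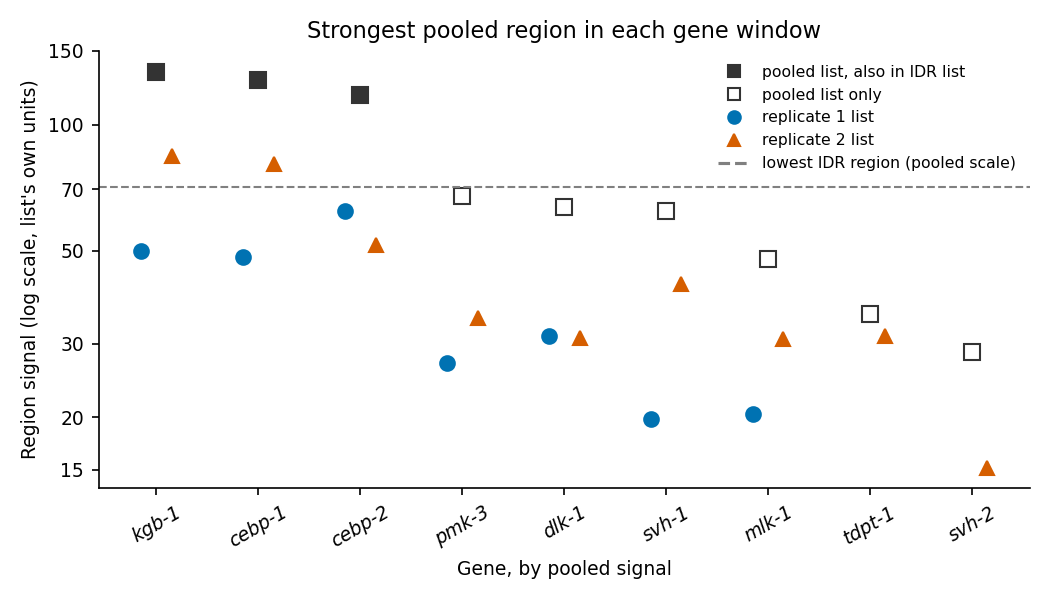
Signal of the strongest pooled region in each gene's window (squares, log scale, filled where also in the IDR list) with the overlapping regions of replicate 1 (circles) and replicate 2 (triangles), each in its own list's units. The dashed line marks the lowest IDR signal, 71.1, which the pooled squares of kgb-1, cebp-1 and cebp-2 exceed.

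For 3 genes the strongest region lay just below the IDR list, whose lowest signal was 71.1. For pmk-3, the p38 kinase of the DLK-1 cascade, it was the region at IV:8136314, with a pooled signal of 67.4 (rank 1200), 26.9 in replicate 1 and 34.6 in replicate 2. That summit was 2905 bp upstream of pmk-3 but 75 bp upstream of islo-1, which lies between it and pmk-3. It was 259 bp upstream of isp-1, a respiratory chain complex III gene on the other strand. It lay in an exon of the noncoding RNA gene F42G8.16. Within pmk-3 itself, an intronic region at IV:8140562, 320 bp downstream of an internal start, had a pooled signal of 42.3 (rank 2958) and was listed by replicate 1 (29.5) but not by replicate 2. A region of 33.3 in its 3' UTR was listed by replicate 2 (23.6) but not by replicate 1.

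For dlk-1, the first kinase of that cascade, the strongest region was distal, and the replicates gave nearly equal signals. It lay in an intergenic stretch at I:12575868, 3067 bp upstream of the gene, with no other protein-coding start closer. The pooled signal was 63.4 (rank 1351), with 31.3 in replicate 1 and 31.0 in replicate 2. The other pooled regions of dlk-1 were weak, from 24.6 to 27.4, and 2 of the 3 lay in its introns.

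For svh-1, the growth factor gene, the region at IV:8205450 had a pooled signal of 62.1 (rank 1409), and the replicates differed more than at any of the other genes with a value in both. Replicate 1 gave 19.8 (rank 4900) and replicate 2 gave 41.6 (rank 931), a ratio of 2.10. The summit was 1164 bp upstream of svh-1, in an intron of hgrs-1, an endosomal sorting gene on the other strand, 178 bp upstream of an internal start of that gene. A second region, inside an intron of svh-1 (pooled signal 31.0), was 84 bp upstream of C07G1.7. The regions in the svh-1 window were thus nearer to the starts of other genes than to its own.

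The gene for MLK-1, the kinase activated by SVH-2, had an intermediate region at its own start. The summit was at V:5065188, 377 bp upstream of mlk-1 and in no other promoter window, with a pooled signal of 47.8 (rank 2263), 20.4 in replicate 1 and 30.8 in replicate 2. The replicate summits were 120 bp apart. A second intergenic region at V:5067598, 2787 bp upstream, had a pooled signal of 36.6, with 16.6 in replicate 1 and 21.2 in replicate 2. Neither was in the IDR list, but each replicate listed both.

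At svh-2, the receptor gene that ETS-4 is known to induce after injury, a single weak region was listed. Its summit was at X:6552618, 669 bp upstream of svh-2, and no other gene begins near it. The pooled signal was 28.6 (rank 7781 of 12348) and the −log10 q 0.10. In replicate 2 it had a signal of 15.1 (rank 9943 of 14622), close to the lowest of that list, 13.07. Replicate 1 listed no region in the window. Of the 3000 pooled regions ranked after 6000 and up to 9000, 29.6% overlapped a region in both replicate lists and 31.4% one in replicate 2 only, so a region of this rank with 1 replicate behind it was common. The best pooled signal was at least this high in the windows of 43.3% of all protein-coding genes. Because depth is unknown and the lists do not report the signal where no region was listed, binding at svh-2 was not detectable above this level in these lists, which does not show that it was absent.

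The ets-4 gene itself, about 30 kb from svh-2, had no region in any of the 4 lists from 5000 bp upstream to its end. The gap between the ets-4 end and the svh-2 start is 30619 bp, and the whole stretch from 5000 bp upstream of ets-4 to the end of svh-2 is 50.3 kb. That stretch held 0 IDR and 2 pooled regions, where X as a whole averaged 0.50 and 5.92 per 50.3 kb. Replicate 1 listed 1 region there and replicate 2 listed 2, where the averages were 7.64 and 7.0. The tagged transgene carries ets-4 sequence of its own, and whether extra copies change region calling in this stretch was not tested.

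The regulator gene tdpt-1 had a strongest region that belonged by position to its neighbour. The region at I:14103239 had a pooled signal of 35.2 (rank 4527), lay in a coding exon of tfg-1 and was listed by replicate 2 (31.3) but not by replicate 1. A second region stood at the start of tdpt-1 itself, 45 bp upstream and 187 bp upstream of tfg-1, which is transcribed the other way. Its pooled signal was 34.1 (rank 4908), with 16.4 in replicate 1 and 16.1 in replicate 2. The replicates thus gave almost the same low value at the shared start and differed in the exon.

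**Figure D3:**
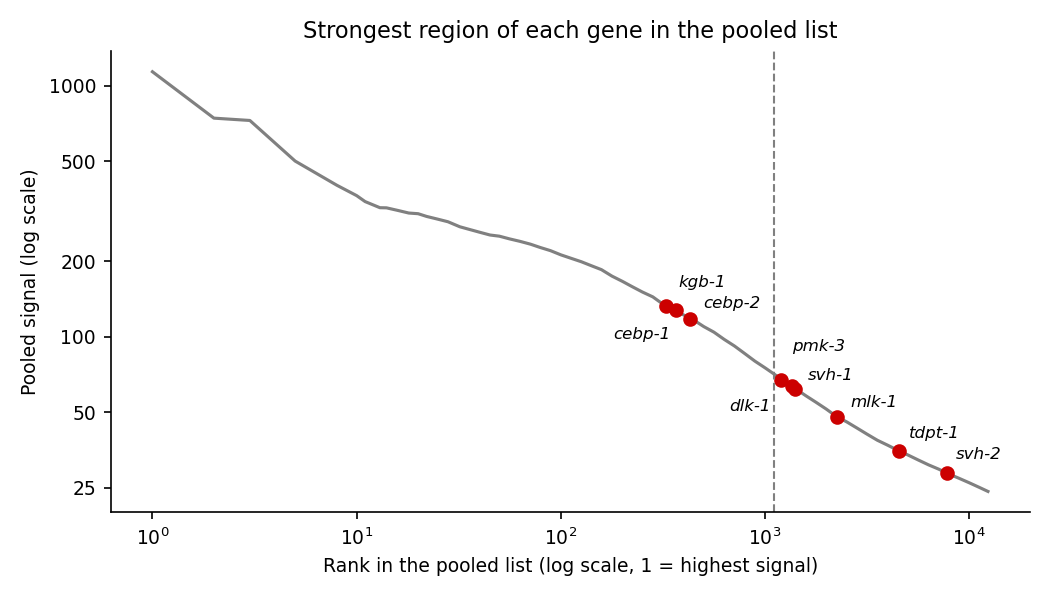
Signal against rank in the pooled list (both axes logarithmic, grey line), with the strongest region of each of the 9 genes in red. The dashed line at rank 1106 marks the end of the IDR list. The genes kgb-1, cebp-1 and cebp-2 lie before it at ranks 327 to 431, and svh-2 is last at rank 7781.

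In all, the windows of the 9 genes held 22 pooled regions, 20 of replicate 1 and 24 of replicate 2. Of the 22, 12 (54.5%) overlapped regions of both replicates, against 48.9% of all pooled regions, 3 overlapped replicate 1 only, 5 replicate 2 only and 2 neither. Agreement followed rank, as in the whole list. Of the 13 regions ranked up to 6000, 10 were in both replicates, and of the 9 ranked after 6000, 2 were. Over the whole pooled list, 93.2% of regions between the IDR list and rank 3000 were in both replicates, and 13.1% of those ranked after 9000. Of the 22 regions, 12 were nearest to the start of the gene whose window held them. The strongest region was nearest to its own gene for cebp-1, cebp-2, mlk-1, svh-2 and dlk-1, and nearest to another start for kgb-1, svh-1, pmk-3 and tdpt-1. How often this holds over all protein-coding genes is not given, so these counts cannot be called particular to the 9. Annotated starts can be splice-leader sites, downstream of where transcription begins, so such distances are approximate.

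Replicate 2 gave higher signals at most of these genes. Of the 7 genes whose strongest region was in both replicate lists, the ratio of replicate 2 to replicate 1 was 1.69 at kgb-1, 1.66 at cebp-1, 1.51 at mlk-1, 2.10 at svh-1 and 1.29 at pmk-3. It was 0.99 at dlk-1 and 0.83 at cebp-2. Across the 1105 IDR regions with a value in both lists the median ratio was 1.10, with quartiles of 0.88 and 1.36. A ratio as high as that of kgb-1 was found at 10.6% of them and as high as that of cebp-1 at 11.5%. The regions of svh-1, mlk-1, pmk-3 and dlk-1 are not in the IDR list, so this spread is not theirs. With 2 replicates there is no test of these differences.

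**Figure D4:**
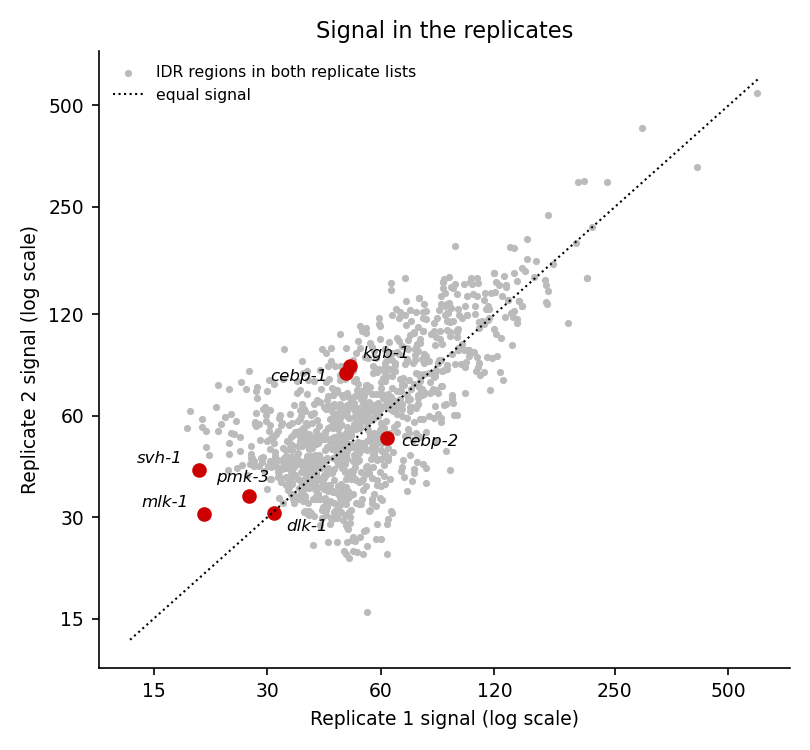
Signal in replicate 2 against replicate 1 (log scales) for 1105 IDR regions (grey) and for the strongest region of the 7 genes listed in both replicates (red). The dotted line is equal signal. The genes kgb-1, cebp-1, svh-1, mlk-1 and pmk-3 lie above it, dlk-1 lies on it and cebp-2 below it.

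The letters at the 9 strongest summits did not include a long ETS site, but few IDR or pooled summits did. CCGGAA was at none of the 9, against 5.79% of IDR summits and 7.31% of pooled summits, each searched within 100 bp on both strands. The core GGAA, which is part of that site, was at 8 of 9, against 81.6% of IDR summits and 85.8% of pooled summits. The exception was kgb-1, though within 250 bp all 9 held it. CGGAT, which holds the other ETS core GGAT, was at none, against 13.8% and 17.2%. Which core ETS-4 prefers was not tested. No match says only that the letters are not in the window.

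GAGAGA was at 4 of the 9 summits, those of mlk-1, dlk-1, pmk-3 and tdpt-1, against 39.4% of IDR and 23.2% of pooled summits. None of the 3 genes with an IDR region held it. Of the C/EBP patterns, TTGCNNAA was at cebp-1, svh-1 and mlk-1, and all 3 matches lay within 50 bp of the summit. IDR and pooled summits held it equally often, at 17.7% each. The strict palindrome TTGCGCAA was at none of the 9, and at 1.36% of IDR summits. The AP-1 site TGACTCA was at cebp-1 alone and at 2.08% of IDR summits, and the CRE-type site TGACGTCA was at none and at 0.633%. A match describes the sequence and does not show which protein was bound.

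ETS-4 regions of high rank also stood at partners of these kinases, among them the phosphatase gene ppm-2, the AP-1 genes jun-1 and fos-1 and 3 genes of cyclic AMP signalling. Of 26 other genes in 3 lists, 8 had an IDR region in their window (30.8%, against 10.6% of all protein-coding genes) and 5 in a promoter window (19.2%, against 5.34%). In the DLK-1 list, 2 of 7 genes had one. The highest was at ppm-2, a phosphatase gene that restrains DLK-1, with a pooled signal of 226.3 (rank 80), 88.7 in replicate 1 and 138.6 in replicate 2. Its summit lay 999 bp upstream of the gene, at the edge of the promoter window. It was in exons of the noncoding RNA genes T23F11.7 and T23F11.10. The other IDR region (83.4) was in the window of uev-3, a ubiquitin-conjugating enzyme variant of the pathway. It was 691 bp from the start of rab-5 and 2568 bp from that of uev-3. The kinase genes mkk-4 (59.2) and mak-2 (57.6) had weaker regions in both replicates. The pooled list held no region for rpm-1, the ubiquitin ligase gene of the pathway.

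In the KGB-1 list, 3 of 11 genes had an IDR region. These were the AP-1 genes jun-1 (123.5, 136 bp upstream) and fos-1 (108.3, 3033 bp upstream), and the tensin gene tns-1 (79.1, in an intron). The replicates gave 57.6 and 63.0 at jun-1, 56.2 and 52.0 at fos-1 and 40.3 and 38.5 at tns-1. Of the genes of this list without an IDR region, max-2 (63.1) and vhp-1 (55.5) had the highest pooled signals. Both regions lay in introns of these genes and were listed by both replicates. The kinase gene mek-1, between mlk-1 and kgb-1 in the cascade, had a pooled signal of 36.5. The genes for the Rac GTPase CED-10 and the discoidin receptor DDR-2 had no region in the pooled list.

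Among the 8 genes of cyclic AMP and SUMO, 3 had an IDR region. They were kin-1, the catalytic subunit of protein kinase A (128.9, in an intron 254 bp upstream of an internal start), the G protein gene gsa-1 (116.5, 171 bp upstream) and the adenylyl cyclase gene acy-1 (104.2, 147 bp upstream). The acy-1 summit lay in an exon of the noncoding RNA gene F17C8.10. The replicate signals were 64.8 and 62.0 at kin-1, 56.3 and 58.6 at gsa-1, and 37.0 and 65.1 at acy-1. The phosphodiesterase gene pde-4 had a pooled signal of 46.2, with 27.7 in replicate 1 and 19.1 in replicate 2. The regulatory subunit gene kin-2 had a pooled signal of 35.6 and was listed by replicate 2 only. Of the SUMO genes, ubc-9, the conjugating enzyme, had 65.8, just below the IDR list, gei-17, a SUMO ligase, had 45.0, in a region closer to nduf-7, and smo-1, SUMO itself, had 28.5. The 3 genes with an IDR region are thus among the 5 cyclic AMP genes of the list, the other 3 genes being those of SUMO, and this split was not tested. The lists had median windows of 8393, 13929 and 12253 bp, longer than the 7024 bp of all genes, and no test was run on them.

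**Figure D5:**
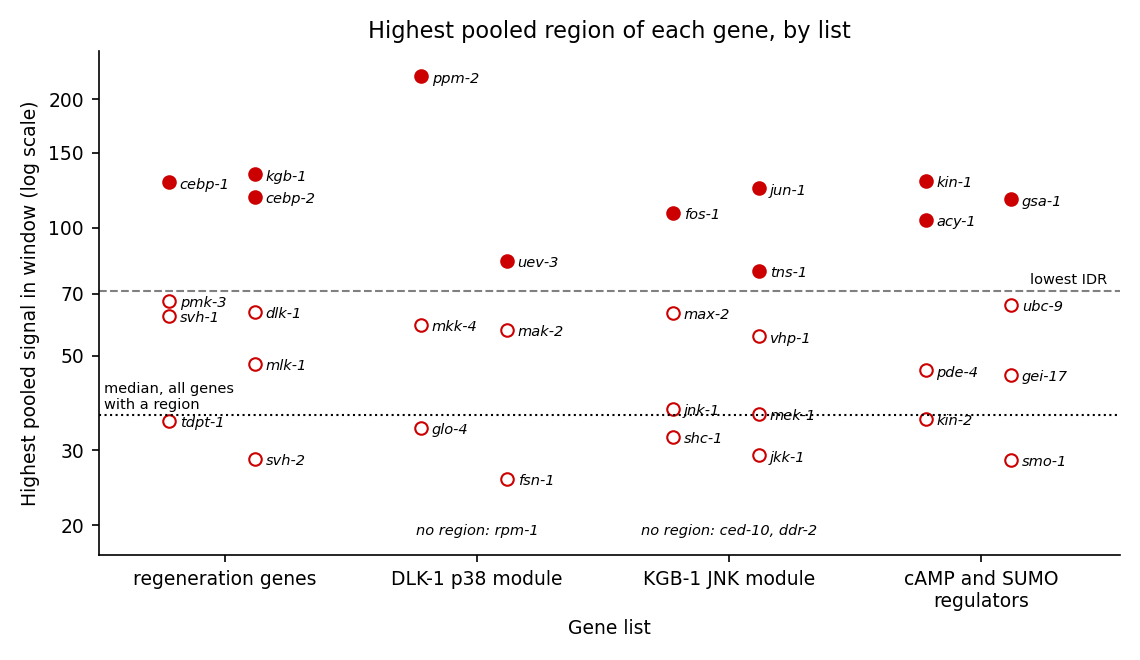
Highest pooled signal in the window of each gene (log scale) for the 9 regeneration genes and 3 lists of partners. Filled points are also in the IDR list. The dashed line is the lowest IDR signal, 71.1, and the dotted line the median of all protein-coding genes with a pooled region, 36.2. The genes rpm-1, ced-10 and ddr-2 have no pooled region.

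The median of the highest pooled signal was 63.4 over the 9 genes. It was 58.4, 55.5 and 56.0 over the genes with a region in the DLK-1, KGB-1 and cyclic AMP and SUMO lists, and 36.2 over the 11367 protein-coding genes with a region.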

How the data were processed

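The regions came from 4 lists in the ce11 build. Per the readme texts the authors deposited, regions were derived with a control file from each replicate by itself and from the 2 replicates combined, and the IDR list was derived from those 3 lists. The replicate and pooled lists keep weak regions, and the pooled list by its name holds background too. Which aligner and caller were run, and the IDR threshold, is not given in the sources used here. Lists in the ce10 build were not used. Signal and −log10 q are the authors' values, read from columns 7 and 9 of these narrowPeak files as deposited. The −log10 q in the pooled list ran from 0.02 to 3.29, and 972 regions shared the highest value. For the strongest pooled regions it was 3.29 at kgb-1, cebp-1 and cebp-2 and from 1.93 to 2.20 at svh-1, dlk-1 and pmk-3. It was 1.09 at mlk-1, 0.35 at tdpt-1 and 0.10 at svh-2. The signal scale is not stated, so values are compared within a list, and replicate ratios carry any difference in scale.

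No region ran past a chromosome end of the RefSeq WBcel235 genome. Genes and starts of protein-coding transcripts came from Ensembl release 115. Python 3.11.15 was used, and the window, overlap (at least 1 bp) and motif steps were checked on simulated regions and sequences. Motifs were searched on both strands within 100 bp of a summit. The sequence at the kgb-1 summit is not reported here. The members and gene lists were chosen with earlier results of these data known, and no statistical test was run. Text names all 9 genes, the genes nearest their strongest regions, ets-4, and from the partner lists the genes with an IDR region and some others, some of them chosen after their values were seen. Alternatives were other windows, each replicate alone, upper 50% of a list, stricter overlap and other motif windows.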

Additional observations from a re-analysis of the deposited data

How the results depend on the processing

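The 3 genes with an IDR region, kgb-1, cebp-1 and cebp-2, were the same with the promoter window, with 2000 bp upstream and in the upper 50% of the IDR list. That upper 50% had a region in the windows of 5.71% of all protein-coding genes. With each replicate alone, taking its 1106 regions of highest signal, the count ran from 3 to 4, svh-1 being added when replicate 1 was left out. The share of all protein-coding genes was 10.4% with replicate 1 left out and 10.2% with replicate 2 left out. Counting only regions nearest to the member's own start, a setting chosen after seeing the data, left 2 genes with an IDR region, without kgb-1, and 8 of 9 with a pooled region, without svh-1. The count with a pooled region ran from 8 to 9 with a replicate left out, svh-2 being lost in replicate 1, and the regions in the windows from 20 to 24. In the narrower promoter window, 5 genes had overlapping regions in both replicates and 8 pooled regions remained, by construction fewer. For 2000 bp upstream, nearest starts and the pooled and overlap counts, shares of all genes under the changed setting are not given. Among motifs, GAGAGA was at 2 summits and TGACTCA at 0 within 50 bp, and CGGAT was at 2 and TTGCNNAA at 5 within 250 bp. CCGGAA was at none of the 9 summits within 50, 100 or 250 bp. Depth is unknown, so the limit of detection at svh-2 and ets-4 cannot be given. No paired analysis was possible because there was 1 group.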
